A study of Homo sapiens with 6 samples.

Results

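Tight junctions seal the space between neighbouring epithelial cells, and 9 genes of that junction were examined here in HN5, an established line of human squamous carcinoma of the head and neck. The members were taken by name: the claudins CLDN1, CLDN4 and CLDN7, the MARVEL-domain proteins OCLN, MARVELD2 and MARVELD3, the scaffolds TJP1 and TJP3, and the adhesion molecule F11R. Of these 9 genes, 7 had at least 1 probe, with 12 probes in all among 30112 probes that carry 1 gene symbol. TJP3 and F11R had no listed probe and were not analysed here. Total RNA was measured on 3 arrays of parental cells, which are sensitive to the EGFR kinase inhibitor erlotinib, and 3 arrays of a resistant derivative. The resistant cells came from the parental line by raising erlotinib over 3 months to 12.5 µM and keeping them at that concentration for 6 months. All resistant arrays measured 1 derived line, and the labels do not say whether the drug was present at harvest, so drug, time in culture and resistance cannot be told apart. The labels call the arrays of a group biological replicates without naming separate cultures, so p-values reflect only array-to-array spread within a group, which may be technical.

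In a tight junction, claudins of facing cells pair in the extracellular space and form strands that set which ions and solutes can pass. MARVEL-domain proteins join these strands, with tricellulin (MARVELD2) at the corners where several cells meet, and the cytoplasmic scaffolds ZO-1 (TJP1) and its relatives tie the strands to actin. Squamous epithelia rely on such junctions for their barrier, and many junction genes are repressed by Snail and ZEB family factors that bind the DNA sequence CAGGTG, an E-box.

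Reference promoter sequences are shown for 3 of the 4 members that fell, CLDN1, CLDN7 and MARVELD2; MARVELD3 is named only. Each is the RefSeq window of 300 bases on GRCh38.p14, from 250 bases before to 50 bases after an annotated start, written 5′ to 3′ on the gene's strand. Capitals mark matches to CAGGTG on either strand. The CLDN1 window is chr3:190322397-190322696 on the minus strand, the CLDN7 window chr17:7262429-7262728 on the minus strand and the MARVELD2 window chr5:69414866-69415165 on the plus strand. CRB3, a polarity gene described below, was added after its matches were seen, and its window is chr19:6464021-6464320 on the plus strand.
CLDN1: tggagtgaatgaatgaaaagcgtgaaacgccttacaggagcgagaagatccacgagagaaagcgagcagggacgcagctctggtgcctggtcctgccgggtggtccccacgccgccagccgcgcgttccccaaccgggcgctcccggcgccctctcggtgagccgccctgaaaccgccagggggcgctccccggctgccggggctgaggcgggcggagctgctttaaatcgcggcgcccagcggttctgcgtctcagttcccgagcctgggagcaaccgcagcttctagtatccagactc
CLDN7: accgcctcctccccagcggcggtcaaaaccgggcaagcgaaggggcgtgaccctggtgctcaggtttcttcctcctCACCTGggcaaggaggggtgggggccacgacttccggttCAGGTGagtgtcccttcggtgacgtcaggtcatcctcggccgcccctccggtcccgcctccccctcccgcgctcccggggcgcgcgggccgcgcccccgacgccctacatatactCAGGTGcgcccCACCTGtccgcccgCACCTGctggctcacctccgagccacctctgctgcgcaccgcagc
MARVELD2: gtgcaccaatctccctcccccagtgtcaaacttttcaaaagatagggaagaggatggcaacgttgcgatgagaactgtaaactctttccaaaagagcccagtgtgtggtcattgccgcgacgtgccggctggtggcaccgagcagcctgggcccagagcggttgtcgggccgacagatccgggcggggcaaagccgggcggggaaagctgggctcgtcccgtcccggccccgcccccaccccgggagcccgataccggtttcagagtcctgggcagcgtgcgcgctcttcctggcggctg
CRB3: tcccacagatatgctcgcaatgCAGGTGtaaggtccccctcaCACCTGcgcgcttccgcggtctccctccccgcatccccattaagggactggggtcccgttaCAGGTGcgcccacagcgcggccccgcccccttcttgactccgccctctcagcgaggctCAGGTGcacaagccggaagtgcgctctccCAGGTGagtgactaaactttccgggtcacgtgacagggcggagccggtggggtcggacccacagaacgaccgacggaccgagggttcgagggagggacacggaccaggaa

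The CLDN7 window held 5 matches to CAGGTG and the CRB3 window held 5, while the CLDN1 and MARVELD2 windows held 0. Among 35116 promoter windows of the same length, 7231 (20.6%) held at least 1 match and 33 (0.094%) held 5 or more; that count of 5 was chosen after the windows were read. CLDN7 has a second annotated start, whose window held 0 matches. The 13 windows of 7 members included 5 with a match, in CLDN7, OCLN (2 windows), TJP1 and TJP3. The Grainyhead motif AACNGGTT, its own reverse complement, was in 0 of the 13 windows and in 0.9% of all windows. The matches are letters in a reference sequence, and binding was not measured here. Of 58 windows of other listed junction, polarity and partner genes, 15 held CAGGTG on either strand. AACNGGTT as written was in 2, those of CGN and ILDR2. The windows of CGNL1, CGN, PARD6G, CLDN12, TJAP1 and RAB13, which also fell, held 0 matches to CAGGTG. RAB13 fell by 0.24 (limma adjusted p = 0.0117). CRB3, CLDN14, PATJ, PARD6A and SPINT1 fell too, and at least 1 window of each held a match. The PATJ probes gave different calls, -0.16 on the probe used (limma adjusted p = 0.0299) and -0.08 on the second (0.212). A link between the motif and the falls was not tested.

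Of the 7 members with a probe, 5 passed the filter on dim probes, and 4 of these 5 were lower in the resistant cells. CLDN1, MARVELD3, CLDN7 and MARVELD2 fell, TJP1 did not pass the test, and 0 rose (limma, Benjamini-Hochberg adjusted p under 0.05 over all genes). Changes were common in these cells: 53.2% of the 11308 genes tested passed, 27% as falls and 26.2% as rises. The median log2 difference was -0.26 over the 5 tested members and -0.01 over all genes tested. OCLN and CLDN4 were at or near background in both groups. The values are the authors' normalized log2 signals, and probes brighter than about 6.98 on an array were taken as above background. Signals of different probes cannot be set against each other, so each probe is compared only with itself across arrays.

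Markers of cell identity moved between the same groups. Among all genes tested, 27% fell and 26.2% rose, and the marker counts stand beside these shares. Of 7 squamous keratinocyte markers 5 had a probe, and all 5 were above background in both groups and fell, KRT5 and DSG3 among them. Their summed linear signal was 20463 to 22657 on the parental arrays and 13145 to 13778 on the resistant arrays. Of 8 fibroblast markers 4 were tested and rose. For 3 of them, COL1A2, DCN and LUM, the probe used was at background on all parental arrays. These 3 could hardly be tested without rising. The second tested COL1A2 probe, above background on 3 parental and 2 resistant arrays, differed by -0.06 (limma adjusted p = 0.43). The other tested DCN probes rose from background. Fibroblast markers summed to 991 to 1010 in parental and 1915 to 1933 in resistant cells. THY1 and PDGFRB were at background on all arrays. Leukocyte markers summed to 1746 to 1897 in parental and 3352 to 3701 in resistant cells. Of the 3 tested, CD68, a lysosomal protein abundant in macrophages, rose by 1.38 on the log2 scale (limma adjusted p = 3.68e-09). CD14 and CD79A differed by 0.11 and -0.07 (limma adjusted p = 0.223 and 0.377), and PTPRC, CD3E and LYZ were at background on all arrays. Endothelial markers summed to 777 to 782 and 821 to 827, with 6 of 7, CLDN5 and ESAM included, at background on all arrays. PECAM1, the only endothelial marker tested, rose by 0.40, from background on all parental arrays to 7.26 (limma adjusted p = 2.58e-05). PECAM1 too passed the filter on dim probes only through the resistant arrays. Each gene adds a background floor of about 111 to these sums. The part of these shifts in the junction results was not tested, and in bulk RNA fewer cells of a type and less RNA per cell cannot be told apart.

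**Figure D1:**
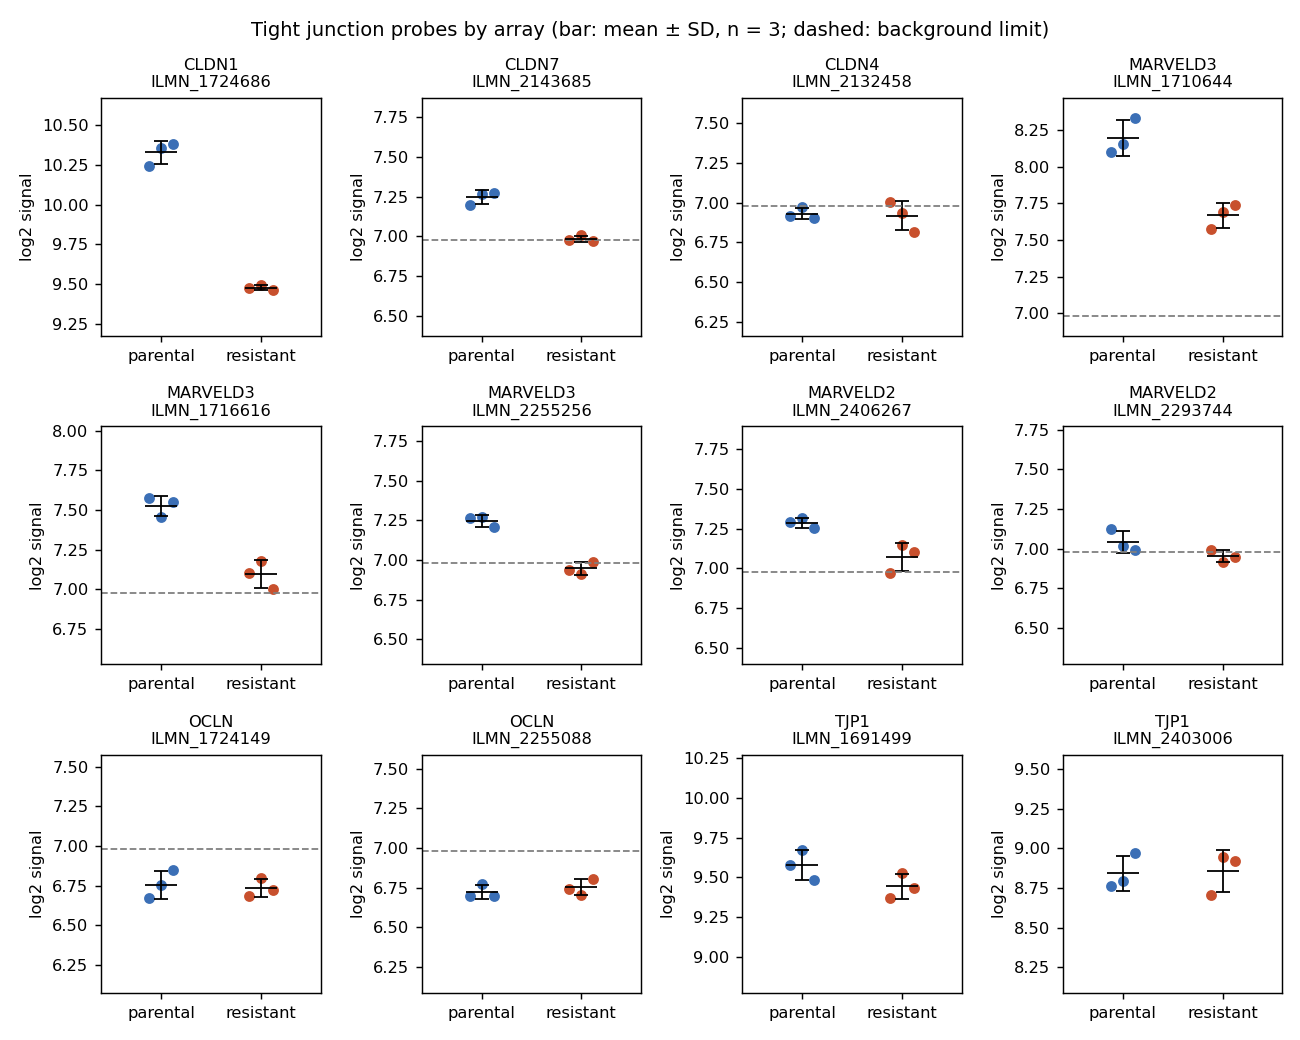
Normalized log2 signal of the 12 tight junction probes on each of the 3 parental (blue) and 3 resistant (red) arrays, with the mean and SD as a bar. Each panel has its own vertical range, and the dashed line is the background limit near 6.98 where it falls in that range. The resistant arrays lie below all parental arrays for 6 of the 12 probes, those of CLDN1, CLDN7, 3 of MARVELD3 and 1 of MARVELD2.

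Among the claudins, CLDN1 had the largest difference of the members on the deposited values. CLDN1, a barrier-forming claudin of the epidermis whose loss in mice makes the skin leak water, is measured by probe ILMN_1724686. Its log2 signal was 10.24, 10.36 and 10.38 on the parental arrays and 9.47, 9.49 and 9.46 on the resistant arrays. The groups did not overlap, and the resistant arrays spread less than the parental ones (SD 0.0153 against 0.0739, n = 3 each). CLDN1 fell by 0.85 on the log2 scale, a level 1.81-fold lower (SE 0.0575, 95% confidence interval -0.98 to -0.73, limma adjusted p = 4.4e-08). Only 1.74% of the genes tested had a more negative difference.

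CLDN7, a claudin that also lies along the lateral membrane and binds the adhesion protein EpCAM, is measured by probe ILMN_2143685. It read 7.20, 7.27 and 7.28 in parental cells and 6.98, 7.01 and 6.97 in resistant cells. The parental arrays were all above background, whereas 1 of the 3 resistant arrays was. CLDN7 fell by 0.26 on the log2 scale, or 1.20-fold (SE 0.0544, 95% confidence interval -0.38 to -0.14, limma adjusted p = 0.00113). With the background mode subtracted the fold was 2.52, with the resistant arrays at or near the floor, so the size of this fall depends on how background is treated.

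CLDN4, a claudin of many simple epithelia and the receptor of a Clostridium enterotoxin, read 6.91, 6.97 and 6.91 in parental and 7.00, 6.94 and 6.82 in resistant cells. A single resistant array was above background, and the groups overlapped. CLDN4 was therefore not tested after the filter; without the filter its log2 difference was -0.01 (SE 0.0539, limma adjusted p = 0.932). CLDN3, the coding gene next to CLDN4 on chromosome 7, was below the limit on all 6 arrays.

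The MARVEL-domain proteins were led by MARVELD3, which in cultured epithelial cells holds back a stress-kinase pathway at the junction. Its brightest probe, ILMN_1710644, read 8.10, 8.15 and 8.34 in parental and 7.58, 7.69 and 7.74 in resistant cells. All 6 arrays were above background and the groups did not overlap. MARVELD3 fell by 0.53 on the log2 scale, 1.44-fold (SE 0.0709, 95% confidence interval -0.68 to -0.37, limma adjusted p = 3.15e-05). With the background mode subtracted the fold was 1.97.

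The other MARVELD3 probes are annotated to a different RefSeq transcript of the gene. ILMN_1716616 read 7.57, 7.45 and 7.55 in parental and 7.10, 7.18 and 7.00 in resistant cells, a fall of 0.43 (limma adjusted p = 8.94e-05 over 15129 probes). ILMN_2255256 read 7.27, 7.27 and 7.21 against 6.94, 6.91 and 6.99. It fell by 0.30 (limma adjusted p = 5.22e-04), and 1 resistant array was above background. All 3 MARVELD3 probes, covering 2 annotated transcripts, thus fell.

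MARVELD2 encodes tricellulin, which seals the corners where cells meet and whose loss causes hearing loss in people. Probe ILMN_2406267 read 7.29, 7.32 and 7.25 in parental cells and 6.97, 7.15 and 7.10 in resistant cells, without overlap. Resistant replicate 1 was the lowest array and the only one below the background limit. MARVELD2 fell by 0.21 on the log2 scale, 1.16-fold (SE 0.0603, 95% confidence interval -0.34 to -0.08, limma adjusted p = 0.00899). The fold was 1.94 with the background mode subtracted. Its second probe, ILMN_2293744, read 7.12, 7.02 and 6.99 against 6.99, 6.92 and 6.95, with 1 resistant array above background. The difference of that probe, -0.09, missed the threshold (limma adjusted p = 0.222), so the probes of MARVELD2 gave different calls.

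OCLN encodes occludin, a strand protein that modulates rather than builds the barrier. Its 2 probes lay below the background limit on all 6 arrays. ILMN_1724149 read 6.67 to 6.85 in parental and 6.69 to 6.80 in resistant cells, and ILMN_2255088 read 6.70 to 6.78 and 6.71 to 6.81. Without the filter the log2 difference was -0.02 (SE 0.0550, limma adjusted p = 0.859). A level below the limit does not show that the transcript is absent, and a change there could not be detected. The reference also lists a pseudogene, OCLNP1, and whether the probes separate its transcript from OCLN was not tested. OCLN and MARVELD2 are neighbouring coding genes on chromosome 5.

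Of the scaffolds, TJP1 was bright in both groups. TJP1 encodes ZO-1, which binds claudin tails through a PDZ domain and links them to actin. Probe ILMN_1691499 read 9.58, 9.67 and 9.48 in parental and 9.37, 9.53 and 9.43 in resistant cells, with overlapping groups. The log2 difference was -0.13 (SE 0.0656, 95% confidence interval -0.28 to 0.01) and missed the threshold (limma adjusted p = 0.103). Leaving out parental replicate 3 brought it to -0.18 and past the threshold (limma adjusted p = 0.0432), and the adjusted p lay between 0.0432 and 0.423 over all alternatives. The second probe, ILMN_2403006, annotated to another transcript, read 8.76, 8.80 and 8.97 against 8.71, 8.95 and 8.92. It differed by 0.02 (limma adjusted p = 0.878), so the TJP1 probes had opposite signs and neither passed.

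Counted by probe, 9 of the 12 member probes were tested, 6 fell, 3 did not pass and 0 rose. Among all 15129 probes tested, 50.3% passed, 25.9% as falls and 24.4% as rises. For 4 of the 5 tested members every resistant array lay below every parental array, as for 30.3% of all genes tested, and for 0 members the reverse held, as for 28.9%. Under the stricter filter, which keeps probes above background on all 6 arrays, 3 members were tested and 2 fell, CLDN1 and MARVELD3.

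**Figure D2:**
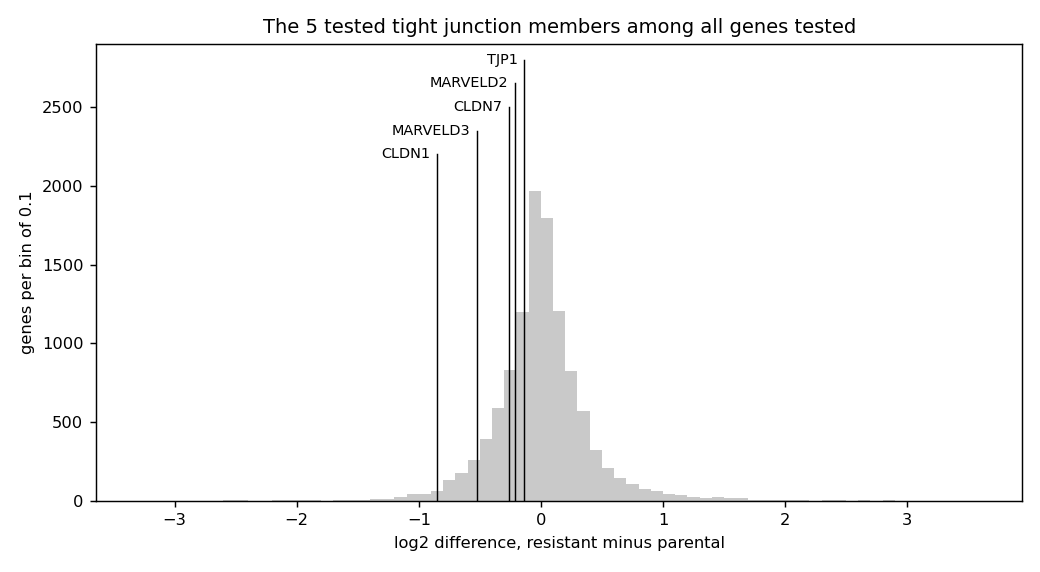
Distribution of the log2 difference, resistant minus parental, over the 11308 genes tested, in bins of 0.1, with vertical lines at the 5 tested members. All 5 lines lie left of 0, from -0.85 for CLDN1 to -0.13 for TJP1.

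The size of the 4 falls relative to each other depended on the background. As deposited, the log2 differences ran from -0.85 for CLDN1 to -0.21 for MARVELD2. With the background mode subtracted they were -0.97 for CLDN1, -0.98 for MARVELD3, -0.96 for MARVELD2 and -1.33 for CLDN7, each past the threshold (limma adjusted p = 7.66e-05, 0.00105, 0.0146 and 9.81e-05). TJP1 was -0.16 there (limma adjusted p = 0.202). The largest fall was thus that of CLDN1 as deposited and that of CLDN7 after subtraction, so the order of the falls depends on this choice. MARVELD2 had the smallest of the 4 falls both ways, though after subtraction it lay close to CLDN1 and MARVELD3.

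**Figure D3:**
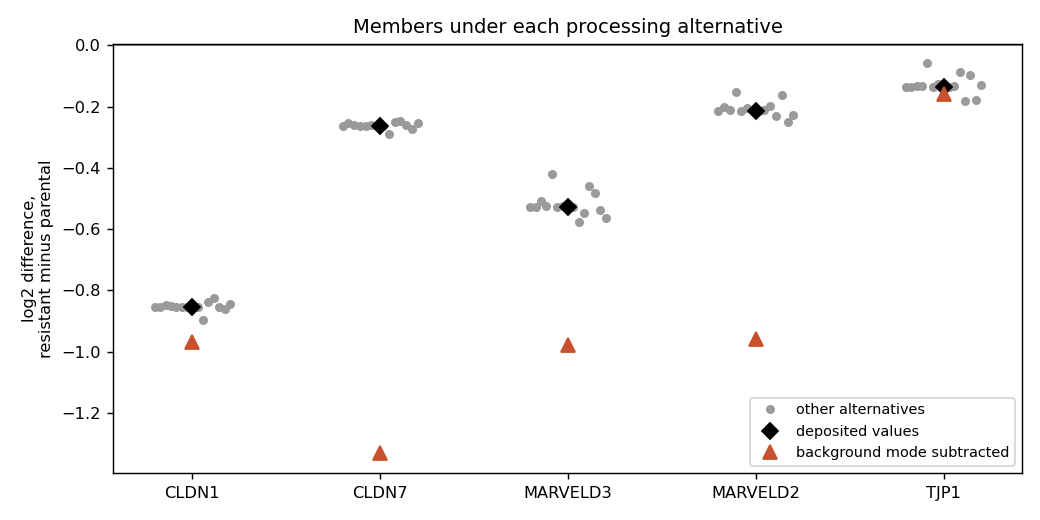
Log2 difference, resistant minus parental, of the 5 tested members on the deposited values (black diamonds), with the background mode subtracted (red triangles) and under the other alternatives (grey points, including each array left out in turn). Subtraction moves CLDN7, MARVELD3 and MARVELD2 to between -1.33 and -0.96, while CLDN1 moves from -0.85 to -0.97 and TJP1 from -0.13 to -0.16.

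Other genes of the junction went both ways. Of 47 listed genes (other claudins, other junction membrane proteins and other plaque proteins), 40 had a probe and 20 were tested. Of these 20, 8 fell, 3 rose and 9 did not pass, beside 27% falls and 26.2% rises among all genes. Their median log2 difference was -0.06.

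The cytoplasmic plaque held the largest fall on this list. CGNL1 encodes paracingulin and CGN cingulin, related proteins on the cytoplasmic face of the junction. CGNL1 went from 9.49 ± 0.0805 to 8.28 ± 0.0322 (log2 signal, mean and SD of 3 arrays per group) and fell by 1.21 (SE 0.0591, limma adjusted p = 1.79e-09), a larger log2 difference than that of any member tested on these values. CGN went from 7.91 ± 0.00796 to 7.24 ± 0.0338 and fell by 0.67 (limma adjusted p = 2.2e-07), a fold of 1.59 that became 3.22 with the background mode subtracted. TJAP1 fell by 0.30, while PALS1, the Crumbs-complex scaffold, rose by 0.30 (limma adjusted p = 9.11e-04 and 5.59e-04). In all, 5 of 10 tested plaque genes fell and 1 rose, beside 27% falls and 26.2% rises among all genes.

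Of 21 other claudins, 7 were tested, 2 fell and 2 rose, beside 27% falls and 26.2% rises among all genes. CLDN23 rose, from 7.26 ± 0.0487 to 8.23 ± 0.0365, by 0.97 (SE 0.0556, limma adjusted p = 8.68e-09). Its fold was 1.96 as deposited and 4.48 with the background mode subtracted, opposite in direction to CLDN1 and CLDN7. CLDN11, known from myelin and Sertoli cells, rose by 0.20 to 7.12, with 1 of 3 parental and 3 of 3 resistant arrays above background (limma adjusted p = 0.0101), a fold of 1.15 that became 1.79 after background subtraction. CLDN12 fell by 0.26 and CLDN14 fell by 0.16 (limma adjusted p = 0.00163 and 0.0259). The CLDN14 call was lost without parental replicate 1, resistant replicate 2 or resistant replicate 3 (adjusted p = 0.102, 0.0728 and 0.0552) and with the mean of its probes (0.119). No array was above background for 10 of the 20 other claudins with a probe.

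Of 9 other junction membrane proteins, 3 were tested. CRB3, the small apical polarity protein of the Crumbs complex, fell by 0.85 (SE 0.0590, limma adjusted p = 6.13e-08). Its second tested probe fell by 0.74 (limma adjusted p = 1.16e-06), and the fold on the brighter probe was 1.80, or 2.61 with the background mode subtracted. The virus receptor CXADR and the tricellular protein LSR gave differences of 0.11 and 0.07, short of the threshold (limma adjusted p = 0.114 and 0.46). The second tested LSR probe, ILMN_2363498, had the opposite sign and fell by 0.19 without overlap of the groups (limma adjusted p = 0.0335), so the LSR probes gave different calls. The LSR difference changed sign to -0.06 with the mean of its probes.

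**Figure D4:**
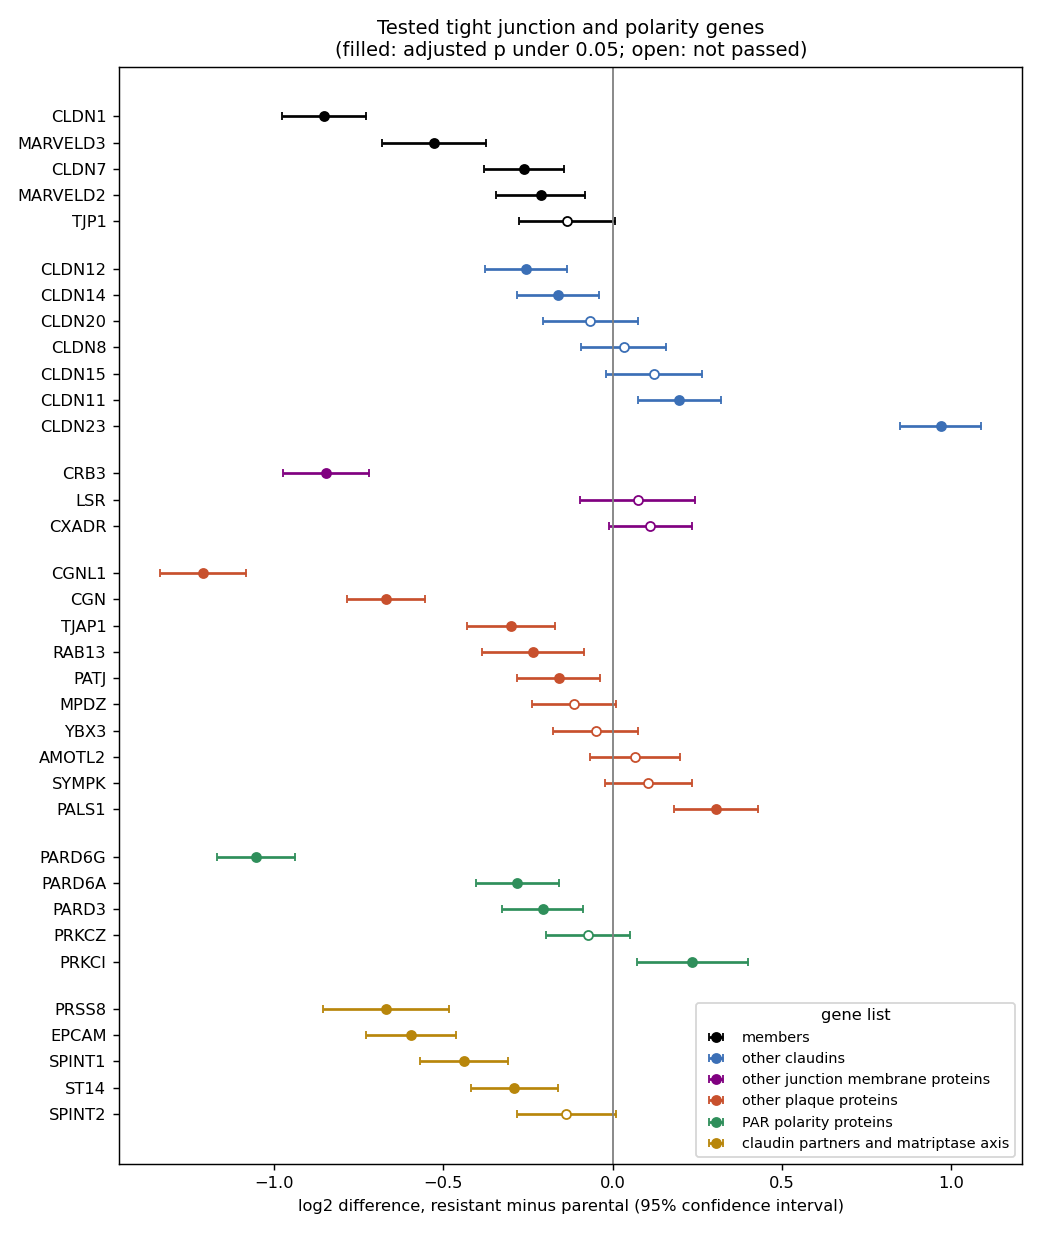
Log2 difference, resistant minus parental, with its 95% confidence interval from limma, for each tested gene of 6 lists; filled points passed the test over all genes and open points did not. Members lie between -0.85 and -0.13, and plaque proteins run from CGNL1 at -1.21 to PALS1 at 0.30, all on the deposited values.

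The PAR complex, which positions tight junctions, also went both ways: 3 of 5 tested genes fell and 1 rose. Among all genes tested, 27% fell and 26.2% rose. PARD6G fell by 1.05 (SE 0.0534, limma adjusted p = 2.68e-09) and a second probe of it fell by 0.40. PARD6A fell by 0.28 and PARD3 fell by 0.21 (limma adjusted p = 9.91e-04 and 0.00655). With the background mode subtracted the folds became 3.38 for PARD6G, 2.39 for PARD6A and 1.88 for PARD3, from 2.08, 1.22 and 1.15. PRKCI, the atypical protein kinase C of this complex, rose by 0.24 (limma adjusted p = 0.0178). PRKCI no longer passed when parental replicate 1, parental replicate 2 or resistant replicate 1 was left out (adjusted p = 0.079, 0.0722 and 0.0716), nor after background subtraction (0.0657).

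A list of 6 genes joined EPCAM and the matriptase and prostasin axis; 5 were tested, 4 fell and 0 rose, beside 27% falls and 26.2% rises among all genes. SPINT2 differed by -0.14 and missed the threshold (limma adjusted p = 0.106). EPCAM, which binds CLDN7 and protects claudins from degradation, fell by 0.60 (SE 0.0614, limma adjusted p = 2.66e-06), and all 3 of its probes fell, with log2 differences of -0.53, -0.60 and -0.63. PRSS8 (prostasin), the inhibitor SPINT1 and ST14 (matriptase) fell, with log2 differences of -0.67, -0.44 and -0.29 (limma adjusted p = 2.11e-05, 3.81e-05 and 0.00105). After background subtraction SPINT1 was 2.21-fold and ST14 2.16-fold lower.

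By Pearson's r over the 6 arrays, the genes most like CLDN1 were RPL39L (0.9996), JUP (0.9991), AGAP1 (0.999), CEP41 (0.999) and ERAL1 (0.999). Their log2 differences ran from -2.20 for RPL39L to -0.38 for ERAL1. Such likeness was common: 1355 (12%) of 11303 other genes had r of at least 0.95. The 6 points share their 2 groups, so r mostly follows the difference between them. Among the members, r with CLDN1 was 0.993 for CLDN7, 0.965 for MARVELD3, 0.883 for MARVELD2 and 0.676 for TJP1.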

How the data were processed

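Gene expression was measured on 6 Illumina bead arrays. Trizol extraction, RNeasy columns with DNase I and a biotin label were used, per the labels' protocols. The deposited values are the authors' normalized log2 signals of 47230 probes; the sources used here name no software, background treatment or normalization. Base 2 was read from the values (6.51 to 13.76 on each array). Sorted values differed by at most 0.00434 between arrays, as after quantile normalization, so changes are relative to the other probes of an array. The 12 per-sample columns of a second, non-normalized table match no sample label and were left out. No slide or scan information was given.

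Probes were named through the platform annotation (30112 with 1 symbol, 8 with several, 17110 with none; Entrez IDs changed 0 symbols). Background was the mode of an array's values (kernel bandwidth 0.03) plus 3 SD of the values below it; 40.3% to 40.4% of probes passed. Probes above it on at least 3 arrays were tested. Each gene was represented by its brightest tested probe. Resistant was compared with parental with limma 3.58.1 under R 4.3.3 (a linear model with eBayes moderation, 4 residual and 8.99 prior degrees of freedom), with Benjamini-Hochberg adjustment over 11308 genes, or over 15129 probes for further probes. The fit was tested on simulated data. The number of arrays limits the precision. Same-numbered arrays of the groups deviated together at r = 0.145, 0.00152 and 0.0859 across genes, so the numbers were not taken as pairs. Arrays of a group correlated at 0.9965 to 0.997, and arrays of different groups at 0.9783 to 0.9795.

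The members, lists and alternatives were chosen with earlier results of these data known. Members are named with every probe; from each other list up to 4 tested genes with the smallest adjusted p are named, and for likeness 5 genes. Marker genes, neighbours, genes at background, SPINT2, PATJ, RAB13 and ILDR2 are named outside that rule, after their values were seen. Alternatives were no or a stricter filter, cyclic loess, median centring, subtraction of the background mode, the mean of probes, a moderation trend, array weights, a replicate block, leaving out each array, and, added after seeing the data, a wider kernel for the background limit. Promoter windows were matched by symbol for 7 of the 9 members.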

Additional observations from a re-analysis of the deposited data

How the results depend on the processing

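The count of 4 falling members stayed at 4 under every alternative run except the strict filter, where 3 members were tested and 2 fell because CLDN7 and MARVELD2 were left out, and leaving out parental replicate 3, where TJP1 made it 5. Leaving out 1 array at a time gave 4 to 5 members, 9 to 11 other junction genes, 5421 to 5639 genes and 6815 to 7052 probes called, beside 4, 11, 6018 and 7608. With the replicate block 4 members, 11 other junction genes, 6124 genes and 7807 probes were called, and 3 of 6 arrays correlated best with their own number. Over 78 pairs of a member and an alternative, 77 kept direction and call, and TJP1 passed once. Over 413 such pairs for 26 other named genes, 403 kept both, 9 lost the call (CLDN14, PRKCI and SNAI2) and 1 changed sign, LSR at -0.0573 with the mean of its probes. The median log2 difference of all genes lay between -0.0121 and 0.00454 over all alternatives. Signals near background limit what can be seen for OCLN, CLDN4, CLDN7 and MARVELD2, and folds of dim probes are understated. The cause of the lost and changed calls was not tested.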

Other observations

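Transcription factors that act on junction genes moved as well. Of 6 listed junction repressors 3 were tested and all 3 rose, beside 26.2% rises among all genes tested; 1 of them, ZEB2, could hardly be tested without rising. TWIST1 rose by 0.90, from 8.49 ± 0.0616 to 9.39 ± 0.0743 (log2 signal, mean and SD of 3 arrays per group; limma adjusted p = 4.36e-08). ZEB2 went from background on all parental arrays to 7.15, at least 1.12-fold (limma adjusted p = 1.24e-04), so only the resistant arrays brought it past the filter on dim probes. Its second probe stayed at background. SNAI2, which encodes the E-box binding factor Slug, rose by 0.23 (limma adjusted p = 0.00837), and its second probe rose by 0.27. The SNAI2 call was lost with the background mode subtracted (adjusted p = 0.0537), and over all alternatives the adjusted p lay between 0.00217 and 0.0537. SNAI1 was at background on all 6 arrays, and ZEB1 was above it on 2 of 3 resistant and 0 of 3 parental arrays, which left it untested.

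Of 8 listed epithelial activators 6 were tested, with 2 falls and 2 rises, beside 27% falls and 26.2% rises among all genes. GRHL2, a Grainyhead-family factor that promotes claudin expression, fell by 0.67 (SE 0.0644, limma adjusted p = 1.42e-06), 1.59-fold as deposited and 3.76-fold with the background mode subtracted. OVOL2 fell by 0.73 (limma adjusted p = 7.77e-07). EHF and KLF4 rose by 0.76 and 0.45 (limma adjusted p = 6.47e-07 and 4.27e-04), and the EHF fold went from 1.69 to 2.54 after background subtraction. Squamous and fibroblast markers shifted between the same groups, and no link between these factors and the junction genes was tested.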
